A study of Arabidopsis thaliana with 9 samples.

Results

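The chloroplast-encoded genes of Arabidopsis thaliana were taken as all loci whose identifier begins with ATCG and whose exon counts summed to at least 20 over the 9 libraries of the study. Of 134 ATCG rows among 37869 loci, 80 met this minimum. Another 45 rows had no exon count in any library and 9 had fewer than 20. The lowest total inside the minimum was 24 counts and the highest outside it was 19. A filter on low counts left 73 of the 80 genes for testing. The 7 untested genes had mean levels between 0.111 and 0.333 exon counts per 1e6 counts (CPM).

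The study sequenced polyadenylated RNA from whole 12-day-old seedlings grown on plates under 16 h of light and 8 h of darkness. The wild type was Col-0, and 2 mutant lines, named pp4r3a-1 and pp4r3a-2, carried different alleles of PP4R3A (AT3G06670), the gene for a regulatory subunit of protein phosphatase 4, in the Col-0 background. Each of the 3 genotypes had 3 biological replicates. The labels give neither the molecular nature of the alleles nor the number of seedlings pooled per replicate.

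The plastid genome encodes core subunits of photosynthetic complexes, part of the plastid ribosome, subunits of a bacterial-type RNA polymerase and a few other proteins. It is transcribed by that polymerase, which needs sigma factors encoded in the nucleus, and by nuclear-encoded phage-type polymerases. Many genes are transcribed together as long precursors that are cut, trimmed and spliced by nuclear-encoded RNA-binding proteins. In plastids a poly(A) tail marks RNA for degradation, unlike in the cytosol, so oligo(dT) selection captures plastid transcripts weakly. The counts therefore describe the plastid RNA that passed this selection. In RNA from whole seedlings, differences in the number of green cells, in plastids per cell and in RNA per plastid cannot be told apart.

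The deposited tables give locus identifiers without gene names. The RefSeq annotation used here lists 131 plastid genes under other locus tags, and 5 ATCG loci are named here, through notes on related nuclear genes. They comprise rpl20 and rpl2 for proteins of the large subunit of the plastid ribosome, clpP for the catalytic subunit of the stromal Clp protease, cemA for a protein of the inner envelope membrane, and psbG. The name psbG was first given to a photosystem II protein, and the gene once called so is now known as ndhK, a subunit of the thylakoid NADH dehydrogenase-like complex. All other loci are given by identifier, or in blocks of 100 locus numbers, with no name or role. The name rpl2 is attached here to ATCG01310 alone. As rpl2 has 2 copies in the plastid genome, the other copy may be among the loci not named here.

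In RefSeq assembly TAIR10.1 the plastid chromosome carries cemA at positions 60741 to 61430 on the plus strand, and rpl20 at 68512 to 68865 and clpP at 69910 to 71882 on the minus strand. The gene rpl2 is present in 2 identical copies in the inverted repeat, at 84337 to 85843 on the minus strand and at 152806 to 154312 on the plus strand, and 100% of its exon windows of 50 bases recur at the other copy. A read from rpl2 can therefore not be assigned to either copy, and its level is uncertain to the extent that the authors' counting split or dropped such reads. None of the 50-base exon windows of the other 3 positioned genes recurred in the plastid, mitochondrial or nuclear chromosomes of this assembly. The build on which the authors counted is not given in the sources used here.

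The clpP transcript is interrupted by 2 introns of 867 and 515 bases, and its intron counts carry the clearest intron result among the named genes. Its 4 exon-intron boundaries in TAIR10.1, read 5′ to 3′ on the minus strand with 15 intron bases in capitals and 15 exon bases in lower case, are as follows.
clpP intron 1 5′ junction: ttgggttgacatataGTGCGACTTGTCAGA
clpP intron 1 3′ junction: AAAAATTATCCTAATcaaccgactttatcg
clpP intron 2 5′ junction: gcattccctcacgctTGGCGCCAATGAGTT
clpP intron 2 3′ junction: TTCTATTATATCATCagggtaatgatccat
A spliced molecule joins the lower-case ends of each pair, and a molecule that still holds the intron keeps the capitals.

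Exon counts summed to between 20733294 and 27022497 per library, of which 101844 to 199503 fell on the 80 chloroplast genes, and 1 count was worth 0.0370 to 0.0482 CPM. As a check of the genotypes, PP4R3A averaged 81.6 ± 1.74 CPM in the wild type, against 62.7 ± 3.40 in pp4r3a-1 and 18.04 ± 0.378 in pp4r3a-2 (SD of 3 replicates). A list of 5 green-tissue markers summed to 18141 to 18784 CPM in Col-0, 17199 to 18132 CPM in pp4r3a-1 and 20937 to 21933 CPM in pp4r3a-2, and a list of 6 root markers to 1801 to 1850, 2022 to 2141 and 1944 to 1988 CPM. Each of these markers had counts in every genotype. The summed green-tissue level was thus highest in pp4r3a-2, and its part in the differences between genotypes was not tested.

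The chloroplast genes together took less than 1% of the exon counts in every library. Their share was 0.471%, 0.451% and 0.464% in the Col-0 replicates, 0.555%, 0.521% and 0.557% in those of pp4r3a-1, and 0.426%, 0.525% and 0.962% in those of pp4r3a-2. Every pp4r3a-1 library lay above every Col-0 library, whereas pp4r3a-2 had libraries on both sides of the wild type. The means were 0.462 ± 0.0102% in Col-0, 0.544 ± 0.0205% in pp4r3a-1 and 0.638 ± 0.285% in pp4r3a-2 (SD, n = 3 each). Without its replicate 3 the pp4r3a-2 mean was 0.476%.

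Most of this share came from 2 loci. ATCG00950 took 0.328% to 0.391% of the exon counts in 8 libraries and 0.674% in pp4r3a-2 replicate 3. ATCG00920 took 0.0325% to 0.0689% in the same 8 libraries and 0.187% in pp4r3a-2 replicate 3. Both loci together held 80.2% to 89.5% of all chloroplast counts, so the total mostly follows them. The other 78 genes took 0.0665%, 0.0664% and 0.0668% of the exon counts in Col-0, 0.106%, 0.103% and 0.102% in the pp4r3a-1 replicates, and 0.0659%, 0.0831% and 0.101% in those of pp4r3a-2. Their share was nearly constant in the wild type, was higher in every pp4r3a-1 library, and spread in pp4r3a-2 from the Col-0 level up to the pp4r3a-1 level.

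**Figure D1:**
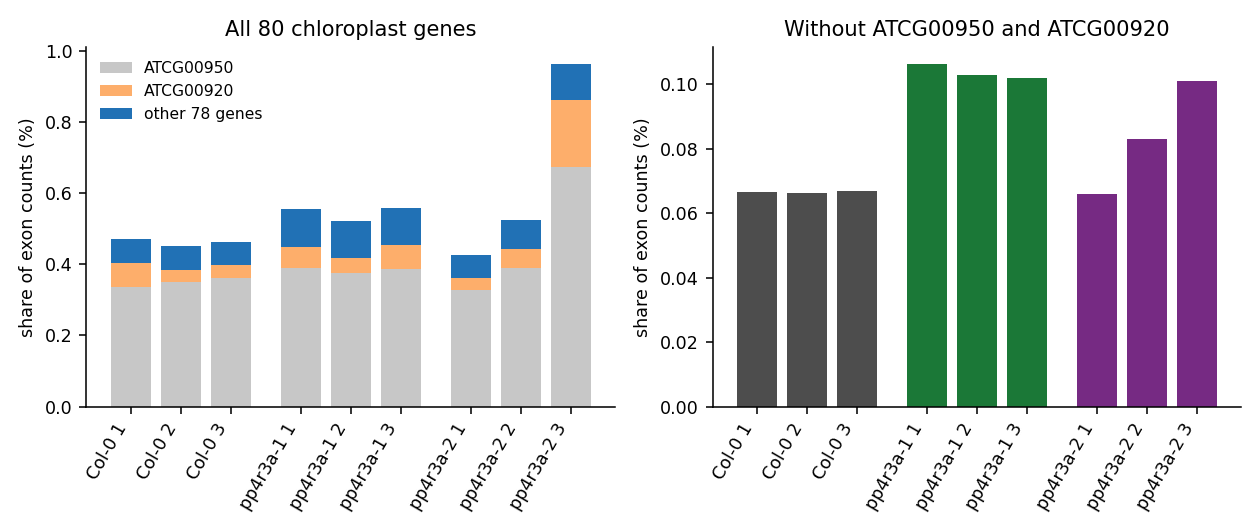
Share of all exon counts (%) taken by the 80 chloroplast genes in each of the 9 libraries (left, stacked by ATCG00950, ATCG00920 and the other 78 genes) and by the other 78 genes alone (right, bars coloured by genotype). The stacked total reaches 0.962% in pp4r3a-2 replicate 3 against 0.426% to 0.557% elsewhere, and the 78 genes lie at 0.0664% to 0.0668% in Col-0 and at 0.102% to 0.106% in pp4r3a-1.

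Replicate 3 of pp4r3a-2 was the highest library at both of the most counted loci. ATCG00950 stood at 3356, 3508 and 3617 CPM in Col-0, 3890, 3760 and 3878 in the pp4r3a-1 replicates, and 3282, 3908 and 6743 in those of pp4r3a-2. ATCG00920 stood at 689, 338 and 354 CPM in Col-0, 599, 418 and 678 in the pp4r3a-1 replicates, and 325, 512 and 1868 in those of pp4r3a-2. The genotypes overlapped at ATCG00920, and neither locus passed the test in either mutant: the log2 changes were 0.15 and 0.46 for ATCG00950 (edgeR adjusted p = 0.647 and 0.165) and 0.30 and 1.02 for ATCG00920 (edgeR adjusted p = 0.722 and 0.244). Both were called in pp4r3a-2 when the fit was not made robust to outlying variances (edgeR adjusted p = 0.00506 and 0.0164), and ATCG00950 was called in pp4r3a-1 without pp4r3a-2 replicate 3 (log2 change 0.15, edgeR adjusted p = 0.0138).

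The share of the 4 nuclear loci that RefSeq annotates as ribosomal RNA moved with ATCG00920. It was 0.503% in pp4r3a-2 replicate 3 and 0.113% to 0.208% in the other libraries, and 7 of the 9 libraries held the same rank for both quantities. Mitochondrial genes, taken as all ATMG loci with no minimum of counts, took 0.0424% in pp4r3a-2 replicate 3 and 0.0233% to 0.0343% elsewhere. The types of ATCG00950 and ATCG00920 were not annotated here, so these loci, and the chloroplast total that they dominate, cannot be read as messenger RNA. The part of carried-over ribosomal RNA in the chloroplast values was not tested.

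Across the 73 tested genes, pp4r3a-2 replicate 3 was the highest of its 3 replicates in 51. Its level relative to the mean of the other two had a median of 1.28 and ran from 0.712 to 4.47, and 12 genes were at least 2-fold higher. Replicate 1 lay at the other end, with a median of 0.717 relative to the mean of the other two, and was the highest of the 3 in 2 genes. Set against the Col-0 mean, the median over the genes was 1.02 in replicate 1, 1.31 in replicate 2 and 1.62 in replicate 3. The coefficient of variation between replicates had a median of 11.8% in Col-0, 11.3% in pp4r3a-1 and 20.2% in pp4r3a-2, so differences of the second allele rest on libraries that differ more among themselves.

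**Figure D2:**
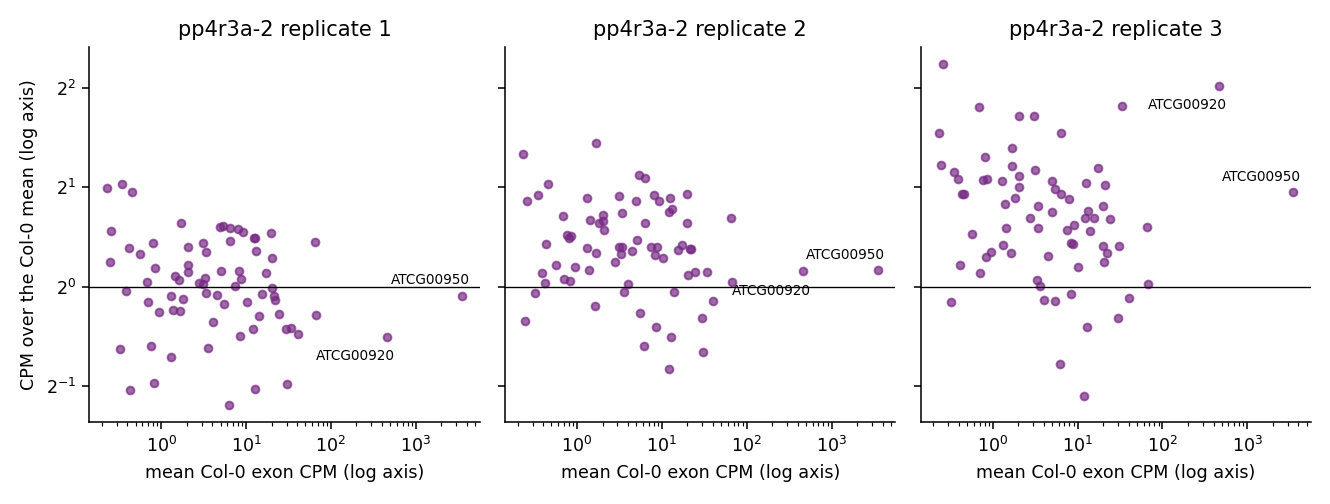
Exon level of each of the 73 tested chloroplast genes in the 3 pp4r3a-2 libraries, as a ratio to the Col-0 mean (y axis, log2-spaced), against the mean Col-0 CPM (x axis, log10-spaced); each point is 1 gene and the line marks a ratio of 1. The cloud shifts from a median ratio of 1.02 in replicate 1 to 1.31 in replicate 2 and 1.62 in replicate 3; the 2 most counted loci, ATCG00950 and ATCG00920, are marked.

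In pp4r3a-1 most chloroplast genes were higher than in the wild type. Of the 73 genes, 52 were called higher and 1 lower, where over all 22631 genes tested 36.3% were called higher and 36.1% lower (edgeR quasi-likelihood test, Benjamini-Hochberg adjusted p under 0.05 over all genes). The median log2 change of the 73 was 0.78, with quartiles at 0.44 and 1.12, beside a median near 0 for all genes (-0.0026). At least 2-fold higher were 27 of the 52. Every pp4r3a-1 library lay above every Col-0 library for 58 of the 73 genes, which was the case for 36.2% of all genes, and the opposite held for 1 gene (37.3% of all genes).

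In pp4r3a-2 fewer genes passed. Of the 73, 32 were called higher and 5 lower, beside 35.6% and 35.8% of all genes tested with edgeR, and 6 of the 32 were at least 2-fold higher. The 5 lower genes were psbG, clpP, ATCG00420, ATCG01020 and 1 more locus of the 400 block. The median log2 change was 0.50, with quartiles at 0.17 and 0.74. Without replicate 3 the counts were 25 higher and 6 lower and the median fell to 0.25, beside 34.1% and 34.0% of all genes in that fit, so that the share of higher calls was then near the background. Without replicate 1 they were 44 and 4 of 74 genes with a median of 0.66, beside 33.8% in either direction. Complete separation of the libraries above Col-0 was seen in 23 genes and below Col-0 in 4, beside 33.3% and 40.4% of all genes, and without replicate 3 in 23 and 7, beside 36.2% and 42.5%.

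Taken as the mean of both alleles, 48 chloroplast genes exceeded Col-0 and 3 fell below it, beside 37.0% and 37.7% of all genes tested with edgeR, with a median log2 change of 0.66. Both alleles were compared with the same Col-0 libraries, so their calls are not independent. There were 31 genes called higher in each allele, 21 called higher in pp4r3a-1 alone and 1 called higher in pp4r3a-2 alone. The gene called lower in both alleles was ATCG01020, and the 4 other genes lower in pp4r3a-2 were not called in pp4r3a-1. Neither comparison called 15 genes. The share of all genes with the same joint calls is not given here, so these joint counts cannot be set against a background.

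The alleles were also compared directly. In pp4r3a-2, 32 genes were lower than in pp4r3a-1 and 0 were higher, beside 23.7% and 24.2% of all genes tested with edgeR, with a median log2 difference of -0.36. The count of higher genes was also 0 at an unadjusted p under 0.05 and by DESeq2. Leaving out pp4r3a-2 replicate 3 gave 43 lower genes and a median of -0.49, and leaving out replicate 1 gave 26 lower and 1 higher and a median of -0.21. For 34 genes every pp4r3a-1 library lay above every pp4r3a-2 library, beside 30.8% of all genes, and no gene showed the reverse, beside 22.4%. Without pp4r3a-2 replicate 3 this was 53 genes, beside 34.1%, and still no gene in reverse, beside 26.7%. The log2 change against Col-0 was larger in pp4r3a-1 for 64 of the 73 genes.

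These counts depend on what a chloroplast transcript is measured against. With each library scaled to its summed chloroplast counts instead of to all genes, 20 genes were higher and 1 lower in pp4r3a-1, 0 higher and 3 lower in pp4r3a-2, and 11 and 2 when the alleles were averaged. That total is dominated by ATCG00950 and ATCG00920. With the total taken without them, a scaling chosen after the counts were seen, 22 were higher and 12 lower in pp4r3a-1, 11 higher and 9 lower in pp4r3a-2, and 2 higher and 6 lower in pp4r3a-2 against pp4r3a-1. The higher levels of most chloroplast genes were thus measured relative to all transcripts, and relative to the other chloroplast genes both directions were called. The share of all genes called under these scalings is not given here, so these counts cannot be set against a background.

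The median change was above 0 in each class of expression level. In pp4r3a-1, 8 of 13 genes with a mean under 1 CPM, 27 of 33 between 1 and 10 CPM and 17 of 27 at 10 CPM or more were called higher, with median log2 changes of 1.02, 0.87 and 0.75, beside 36.3% of all genes called. In pp4r3a-2 the medians were 0.47, 0.52 and 0.46, with 4, 16 and 12 genes called higher, beside 35.6% of all genes, so that the share of calls was below that background in the lowest class.

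The blocks of locus numbers are described by their counts and medians, with no test between blocks. As a background for the counts below, higher calls made up 36.3% of all genes tested with edgeR for the first allele. For the second allele this share was 35.6%. The 700 block had 9 of 10 genes higher in pp4r3a-1 and 7 in pp4r3a-2, with median log2 changes of 1.11 and 0.86. All 7 tested genes of the 800 block were higher in both alleles, with medians of 1.01 and 0.69. In the 1000 block 7 of 9 were higher in pp4r3a-1 and 6 in pp4r3a-2, with medians of 1.16 and 0.47, and ATCG01020 was lower in both. The 4 genes of the 1100 block had the largest block median in pp4r3a-1, at 1.56, with 3 called, and 0.58 with 2 called in pp4r3a-2. Whether 2 of 4 genes differs from the share of all genes was not tested.

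The 400 block went the other way in pp4r3a-2. Its 6 tested genes, psbG among them, had a median log2 change of 0.13 in pp4r3a-1, with 2 higher, beside 36.3% of all genes. In pp4r3a-2 the median was -0.29, with 0 higher and 3 lower, beside 35.6% and 35.8% of all genes. Of the 6, 5 were lower in pp4r3a-2 than in pp4r3a-1, beside 23.7% of all genes. The 600 block, with rpl20 and clpP, had medians of 0.40 and 0.13. Of its 6 genes 3 were higher in pp4r3a-1 and 1 lower in pp4r3a-2, beside 36.3% and 35.8% of all genes. Blocks were formed by number alone, and neighbouring loci can share a precursor transcript, so the genes of a block are not independent observations.

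**Figure D3:**
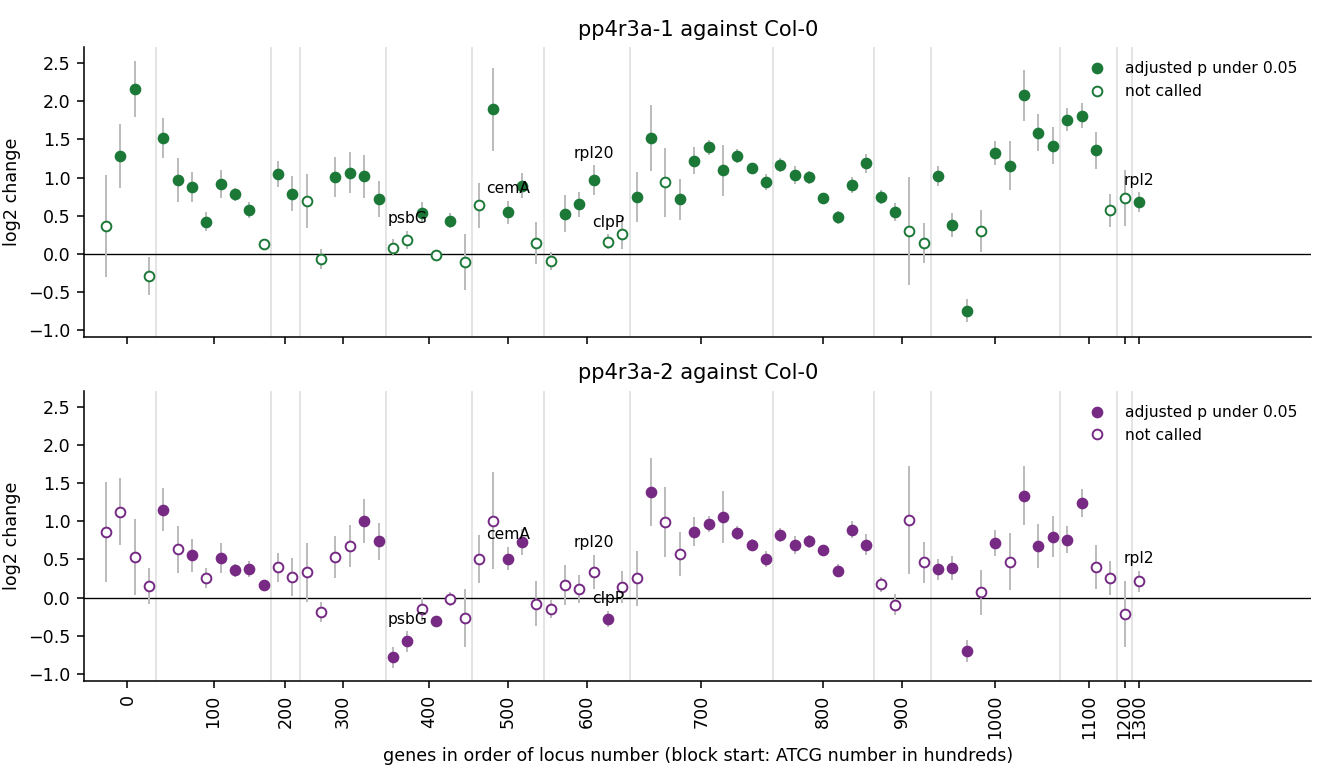
Log2 change of the 73 tested chloroplast genes against Col-0 in pp4r3a-1 (top) and pp4r3a-2 (bottom), in order of locus number, with vertical lines between blocks of 100 numbers. Points are edgeR estimates with bars of 1 SE, filled where the adjusted p was under 0.05; the 700 and 800 blocks lie above 0 in both alleles, and the 6 genes of the 400 block, psbG among them, lie below 0 in pp4r3a-2, while 2 of them are called higher in pp4r3a-1.

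Of the 2 genes of the plastid ribosome named here, rpl20 was called in pp4r3a-1 alone. Its levels were 1.26, 1.56 and 1.33 CPM in Col-0, 3.11, 2.50 and 2.42 in the pp4r3a-1 replicates, and 1.17, 1.55 and 2.46 in those of pp4r3a-2. All pp4r3a-1 libraries exceeded Col-0, whereas of pp4r3a-2 only replicate 3 lay above all Col-0 libraries. The log2 change was 0.96 (SE 0.198, edgeR adjusted p = 5.28e-05) in pp4r3a-1 and 0.33 (edgeR adjusted p = 0.178) in pp4r3a-2. The alleles differed by -0.63 (edgeR adjusted p = 0.00662), a difference not called without pp4r3a-1 replicate 1 or pp4r3a-2 replicate 1 (edgeR adjusted p = 0.0520 and 0.0881).

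The other large-subunit gene, rpl2, followed a like pattern at ATCG01310, the only locus named rpl2 here. It stood at 3.67, 3.39 and 2.87 CPM in Col-0, 4.88, 6.05 and 4.97 in the pp4r3a-1 replicates, and 3.52, 4.15 and 3.47 in those of pp4r3a-2. Libraries of pp4r3a-1 lay above all others, and those of pp4r3a-2 overlapped the wild type. The log2 change was 0.68 (SE 0.126, edgeR adjusted p = 9.96e-06) in pp4r3a-1 and 0.21 (edgeR adjusted p = 0.162) in pp4r3a-2, with a difference of -0.47 between the alleles (edgeR adjusted p = 0.00199). The locus of the other copy of rpl2 was not identified, so these values do not describe rpl2 as a whole. Neither rpl20 nor rpl2 was called in pp4r3a-1 when scaled to either chloroplast total.

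The protease gene clpP differed little in its exons. Its exon levels were 7.34, 8.58 and 9.38 CPM in Col-0, 9.84, 9.40 and 8.71 in the pp4r3a-1 replicates, and 5.99, 6.36 and 8.01 in those of pp4r3a-2. The genotypes overlapped at the wild type, and every pp4r3a-2 library lay below every pp4r3a-1 library. The log2 change was 0.16 (SE 0.0969, edgeR adjusted p = 0.141) in pp4r3a-1 and -0.28 (SE 0.105, edgeR adjusted p = 0.0189) in pp4r3a-2. The fall in pp4r3a-2 was not called by DESeq2 (adjusted p = 0.0538) or without any of 4 libraries: Col-0 replicate 2 or 3, or pp4r3a-2 replicate 1 or 2 (edgeR adjusted p between 0.0590 and 0.138). Between the alleles clpP differed by -0.44 (edgeR adjusted p = 0.000610). Relative to the chloroplast total without the 2 most counted loci, clpP was called lower in both alleles (-0.49 and -0.63, edgeR adjusted p = 0.0114 and 0.00258), and relative to the whole total in neither (edgeR adjusted p = 0.877 and 0.109).

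The envelope gene cemA rose in both alleles by a similar amount. It stood at 4.46, 5.65 and 5.05 CPM in Col-0, 8.62, 6.21 and 7.04 in the pp4r3a-1 replicates, and 5.65, 6.98 and 8.49 in those of pp4r3a-2. All pp4r3a-1 libraries were above Col-0, and replicate 1 of pp4r3a-2 reached only the highest Col-0 level. The log2 changes were 0.54 (SE 0.151, edgeR adjusted p = 0.00396) and 0.51 (SE 0.155, edgeR adjusted p = 0.00709), and the difference between the alleles was -0.03 with an SE of 0.143 (edgeR adjusted p = 0.880). Scaled to the chloroplast total, cemA was not called in either allele.

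The psbG locus was called lower in pp4r3a-2 and not in pp4r3a-1. It stood at 11.4, 12.9 and 14.4 CPM in Col-0, 14.5, 15.7 and 13.1 in the pp4r3a-1 replicates, and 6.32, 9.07 and 9.74 in those of pp4r3a-2. Every pp4r3a-2 library lay below every library of the other genotypes, which overlapped each other. The log2 change was -0.58 (SE 0.134, edgeR adjusted p = 0.00150) in pp4r3a-2 and 0.18 (edgeR adjusted p = 0.196) in pp4r3a-1, with -0.75 (SE 0.131, edgeR adjusted p = 0.000264) between the alleles. Relative to either chloroplast total psbG stayed called in pp4r3a-2, at -0.99 and -0.94. With the 2 most counted loci left out of the total it was called lower in pp4r3a-1 as well (-0.47, edgeR adjusted p = 0.0120), and with the whole total the difference between the alleles was not called (edgeR adjusted p = 0.0837).

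Per kilobase of exon, clpP had the highest mean of the 4 named genes with a gene model in each genotype. For rpl2 only ATCG01310 was counted, so its place in this order holds for that locus and not for the gene. In Col-0, clpP stood at 14.3 ± 1.74 CPM per kb, followed by cemA at 7.33 ± 0.865, and by rpl2 at 4.01 ± 0.493 and rpl20 at 3.91 ± 0.440, which overlapped (mean ± SD, n = 3). In pp4r3a-1, clpP at 15.8 ± 0.968 CPM per kb was ahead of cemA at 10.6 ± 1.77, and rpl20 at 7.56 ± 1.06 and rpl2 at 6.43 ± 0.790 overlapped. In pp4r3a-2 the levels were 11.5 ± 1.82 for clpP, 10.2 ± 2.06 for cemA, 4.88 ± 1.87 for rpl20 and 4.5 ± 0.457 for rpl2, with clpP overlapping cemA and rpl20 overlapping rpl2. The distance between clpP and cemA was thus larger than the replicate spread in Col-0 and pp4r3a-1, and not in pp4r3a-2.

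Among the loci not named here, ATCG00830 and ATCG00780 had the smallest p in the mean of both alleles. ATCG00830 stood at 65.7, 65.8 and 64.6 CPM in Col-0, 107, 107 and 111 in the pp4r3a-1 replicates, and 89.5, 105 and 98.9 in those of pp4r3a-2. Neither mutant overlapped Col-0, and the log2 changes were 0.74 (SE 0.0457, edgeR adjusted p = 1.55e-16) and 0.63 (SE 0.0461, edgeR adjusted p = 2.03e-14). Scaled to either chloroplast total, ATCG00830 was not called in either allele, with log2 changes of 0.49 and 0.27 under the first scaling and 0.09 and 0.29 under the second (edgeR adjusted p between 0.135 and 0.625). ATCG00780 stood at 12.2, 12.3 and 12.2 CPM in Col-0, 25.6, 26.9 and 26.9 in the pp4r3a-1 replicates, and 17.2, 20.6 and 19.8 in those of pp4r3a-2. Its 3 genotypes did not overlap, and it rose by 1.12 and 0.70 on the log2 scale (edgeR adjusted p = 1.24e-17 and 4.54e-11). Under the same scalings it stayed called in pp4r3a-1 (0.88 and 0.48, edgeR adjusted p = 0.0284 and 0.0113) and lost its call in pp4r3a-2 (0.33 and 0.35, edgeR adjusted p = 0.468 and 0.0847).

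ATCG01020 and ATCG00420 fell. ATCG01020 stood at 9.79, 12.7 and 13.5 CPM in Col-0, 6.59, 7.59 and 7.21 in the pp4r3a-1 replicates, and 8.96, 6.74 and 5.59 in those of pp4r3a-2. All 6 mutant libraries lay below Col-0, with log2 changes of -0.74 (SE 0.145, edgeR adjusted p = 0.000430) and -0.70 (SE 0.146, edgeR adjusted p = 0.000810). It was the lowest of its replicates in pp4r3a-2 replicate 3, the library in which most chloroplast genes were highest. ATCG00420 stood at 6.36, 5.81 and 6.51 CPM in Col-0, 7.25, 6.94 and 5.32 in the pp4r3a-1 replicates, and 2.72, 4.11 and 3.62 in those of pp4r3a-2, with a log2 change of -0.79 (SE 0.133, edgeR adjusted p = 3.11e-06) in pp4r3a-2 and 0.08 (edgeR adjusted p = 0.529) in pp4r3a-1. Its pattern was that of psbG, the next number in the list, and both loci kept their call in pp4r3a-2 under each chloroplast scaling. As for psbG, ATCG00420 was called lower in pp4r3a-1 too when the 2 most counted loci were left out of the total (-0.57, edgeR adjusted p = 0.00459), and with the whole total its difference between the alleles was not called (edgeR adjusted p = 0.0590).

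**Figure D4:**
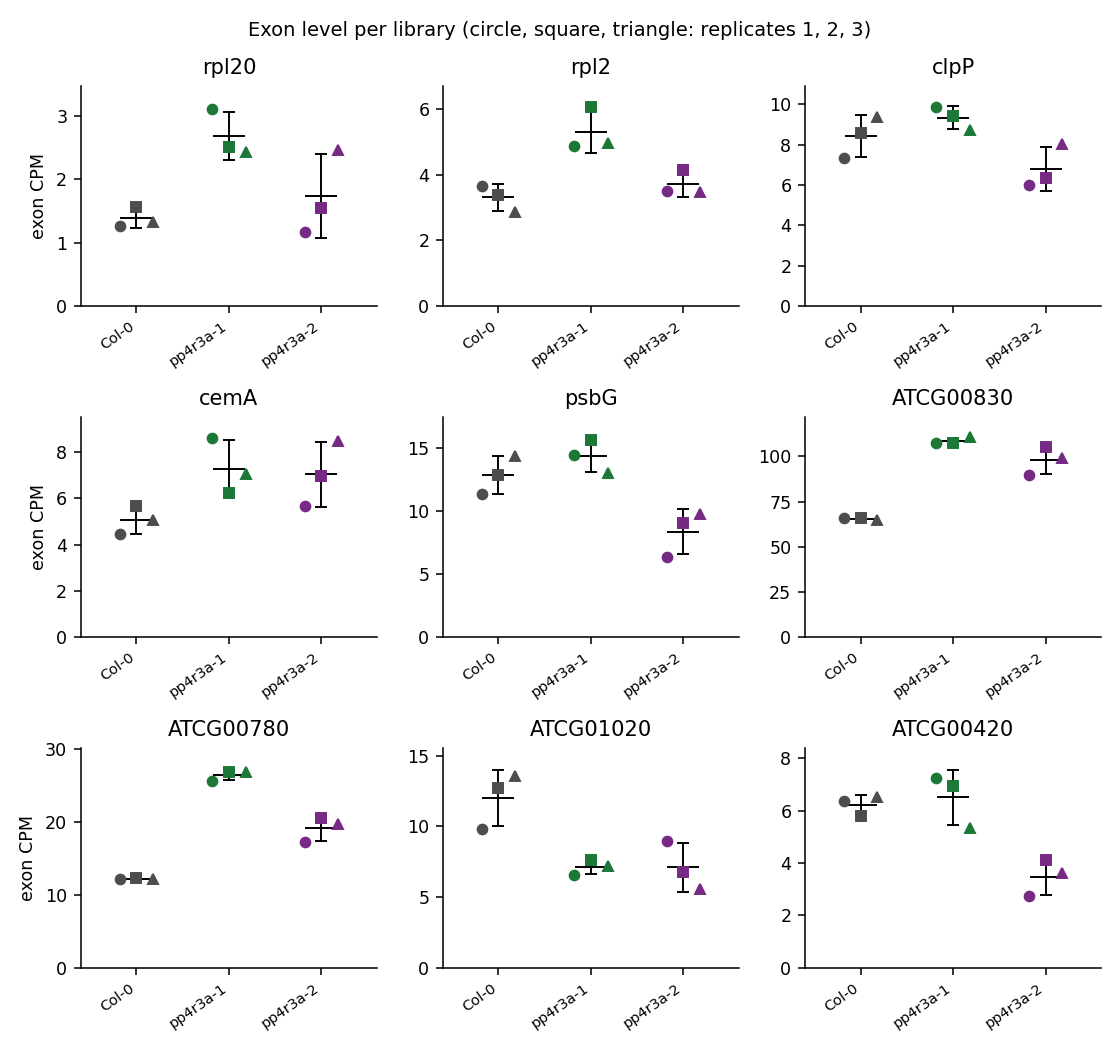
Exon CPM of the 5 named chloroplast genes and of ATCG00830, ATCG00780, ATCG01020 and ATCG00420 in each library; symbols mark replicates 1 to 3, horizontal lines the mean and bars the SD of 3 replicates, and each y axis starts at 0. In ATCG00830 and ATCG00780 both mutants lie above Col-0, in psbG and ATCG00420 only pp4r3a-2 lies below, and ATCG01020 is lower in both.

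Intron counts of the chloroplast genes were examined as a ratio to exon counts. Of 28 ATCG loci whose intron counts reached a total of 90, 21 were among the 80 genes, and the other 7 had no exon count at all while holding 44.7% of the ATCG intron counts. Their reads were counted as intron only, so no ratio could be formed for them. Per 1e6 exon counts, these 7 loci had 132 ± 4.83 intron counts in Col-0, 136 ± 12.8 in pp4r3a-1 and 176 ± 26.5 in pp4r3a-2 (mean ± SD, n = 3). The 21 genes had 132 ± 14.3, 208 ± 10.6 and 191 ± 19.2 in the same order. In the 21 genes every library of either mutant exceeded every Col-0 library, and a single locus held 46.7% of these intron counts. Intron counts of all other loci were higher in the mutants as well, at 20733 ± 476 in Col-0, 31919 ± 1108 for the first allele and 30054 ± 407 for the second.

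The ratio of intron to exon counts was called higher in most genes tested, but in few of the 21 chloroplast loci. In pp4r3a-1, 1 of the 21 was called higher and 1 lower, beside 77.3% and 1.16% of 11189 genes tested with edgeR. In pp4r3a-2, 4 were higher and 1 lower, beside 69.6% and 1.25%, and averaged over the alleles 4 were higher and 1 lower, beside 78.0% and 1.26%. The median log2 changes of the 21 were 0.03 and 0.11 in pp4r3a-1 and pp4r3a-2, where the medians of all genes tested were 0.99 and 0.87. Between the alleles 3 chloroplast genes had a higher ratio in pp4r3a-2 and 0 a lower one (0 also at an unadjusted p under 0.05), beside 1.49% and 6.69% of all genes tested with edgeR. The rule by which the authors assigned a count to introns is not given in the sources used here, and unspliced precursor and RNA of neighbouring or overlapping genes may both be in these counts. Of the 21 loci only clpP had a gene model with introns here. Whether the others hold introns was not checked, so their ratios cannot be read as splicing.

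The clpP ratio was the only one of the 21 called higher in both alleles. Its introns received 241, 285 and 259 counts in Col-0, 630, 479 and 388 in the pp4r3a-1 replicates, and 286, 408 and 340 in those of pp4r3a-2. Per 100 exon counts this was 130, 130 and 118 in Col-0, 237, 206 and 196 in the pp4r3a-1 replicates, and 200, 249 and 205 in those of pp4r3a-2. Both mutants lay above the wild type with no overlap and overlapped each other. The log2 change of the ratio was 0.77 (SE 0.113, edgeR adjusted p = 3.45e-10) in pp4r3a-1 and 0.80 (SE 0.121, edgeR adjusted p = 1.69e-09) in pp4r3a-2, with 0.03 between the alleles (SE 0.114, edgeR adjusted p = 0.931). Both changes lay below the medians over all genes tested, 0.99 in pp4r3a-1 and 0.87 in pp4r3a-2, where 77.3% and 69.6% of genes were called higher. The exon levels of clpP differed from Col-0 by less than 0.3 on the log2 scale in both mutants. The tables give 1 intron count per locus without coordinates, so these counts could not be assigned to either of the introns whose boundaries are printed above.

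ATCG00830 had a changed ratio in 1 allele. It received 43.2, 44.5 and 45.7 intron counts per 100 exon counts in Col-0, 42.7, 48.0 and 42.7 in the pp4r3a-1 replicates, and 57.2, 58.8 and 60.6 in those of pp4r3a-2. The pp4r3a-2 libraries lay above all others, with a log2 change of 0.41 (SE 0.0713, edgeR adjusted p = 1.45e-07), and pp4r3a-1 did not pass, at 0.00 (SE 0.0629, edgeR adjusted p = 0.995). The alleles differed by 0.41 (edgeR adjusted p = 8.14e-07), although the exon level of this gene was higher in both. For psbG, with 8 to 27 intron counts per library, the log2 changes of the ratio were -0.18 and -0.37 (edgeR adjusted p = 0.560 and 0.322). No gene model of psbG was used here, so these counts cannot be placed in an intron or read as splicing.

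**Figure D5:**
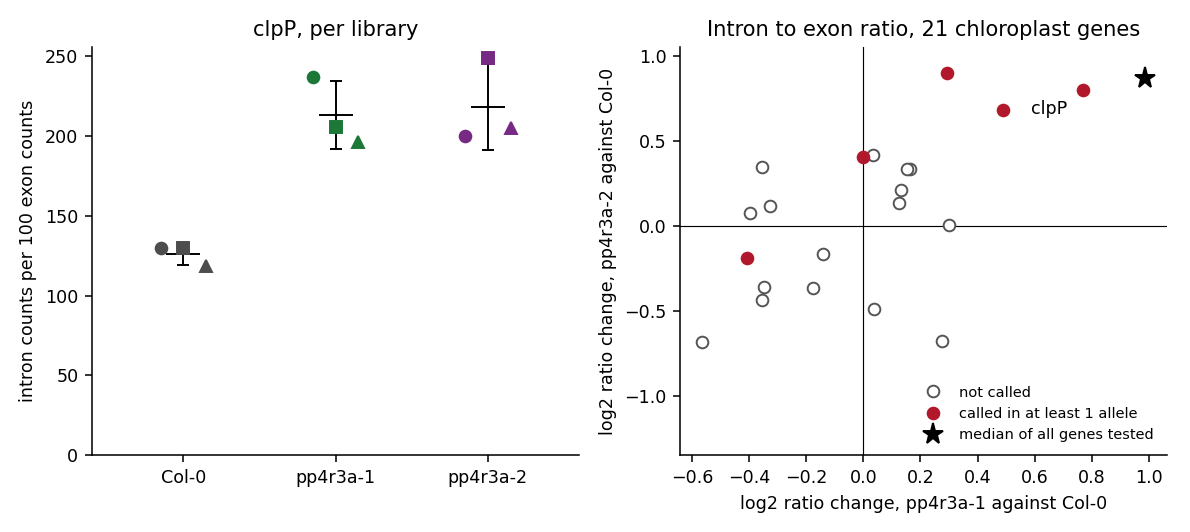
Left, intron counts per 100 exon counts of clpP in each library (symbols as replicates 1 to 3, mean with SD bars, n = 3); right, log2 change of the intron to exon ratio in pp4r3a-1 (x) and pp4r3a-2 (y) for the 21 chloroplast genes tested, with the median of all 11189 genes as a star. clpP rises from 126 per 100 in Col-0 to 213 and 218, and most of the 21 genes lie far below the star.

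The nuclear genes that act on plastid transcription and RNA were read from lists that hold 44 tested genes. The first allele had 5 of them higher and 37 lower, beside 36.3% and 36.1% of all genes tested. The second had 6 and 31, beside 35.6% and 35.8%, and the average of the alleles 6 and 36, beside 37.0% and 37.7%, with a median log2 change of -0.39 in the last. All 12 genes for proteins associated with the bacterial-type plastid polymerase were lower in the mean of both alleles, with a median of -0.51. Of these, PTAC14 (AT4G20130) had 77.0 ± 1.07 CPM in the wild type, 37.3 ± 0.671 in pp4r3a-1 and 37.2 ± 0.876 in pp4r3a-2 (mean ± SD, n = 3; edgeR adjusted p = 1.34e-22 and 7.03e-22). The direction was opposite to that of most chloroplast genes.

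The 6 sigma factor genes split. SIGE (AT5G24120), whose product SIG5 is known for its response to light and stress, rose from 3.84 ± 0.335 CPM in the wild type to 30.9 ± 0.678 in pp4r3a-1 and 21.5 ± 0.643 in pp4r3a-2, log2 changes of 3.01 and 2.53 (edgeR adjusted p = 5.05e-29 and 1.66e-25). SIGA (AT1G64860) rose by 0.39 and 1.20 (edgeR adjusted p = 1.14e-10 and 3.36e-25), and the other 4 were lower in the mean of both alleles. The phage-type polymerase gene SCA3 (AT2G24120) fell by 0.66 and 0.65 (edgeR adjusted p = 5.37e-15 and 1.37e-14), and the second phage-type polymerase gene on the list was higher in both alleles.

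Of 15 genes for plastid RNA turnover and stability, 2 were higher and 12 lower in the average of the alleles, with a median log2 change of -0.52. CP33 (AT3G52380), for an RNA-binding protein of the stroma, had 223 ± 1.26 CPM in the wild type, 97.9 ± 0.200 in pp4r3a-1 and 126 ± 2.93 in pp4r3a-2 (edgeR adjusted p = 2.00e-26 and 8.25e-21). Of 9 genes for plastid intron splicing, 1 was higher and 7 lower, with a median of -0.37. CFM2 (AT3G01370), a splicing factor of plastid introns, had 120 ± 3.19 CPM in the wild type, 66.8 ± 2.87 in pp4r3a-1 and 70.4 ± 1.76 in pp4r3a-2 (edgeR adjusted p = 1.57e-20 and 1.95e-18). The part of these nuclear genes in the chloroplast levels was not tested.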

How the data were processed

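Each of the 9 tables deposited by the authors holds, per the file headers, raw exon and intron counts per locus. Per the labels' protocols RNA was poly(A)-selected with a magnetic bead kit, and per the submitters' processing notes reads were aligned with STAR. The version, genome build, annotation, counting program, strand setting and intron rule are not given in the sources used here, so antisense and overlapping genes cannot be told apart.

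CPM were computed on exon totals. Loci passing filterByExpr on exon counts entered a robust quasi-likelihood fit in edgeR, after TMM scaling, in which each genotype had its own mean. Tests were two-sided, with Benjamini-Hochberg adjustment over 22631 genes. SEs were derived from the log2 change and its F statistic. The intron to exon ratio was tested in edgeR with library terms for 11189 genes with at least 90 intron and 20 exon counts. Both steps were tested on simulated data.

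The members and lists were chosen with earlier results of these data known. Lists by operon and function could not be applied, because 6 of the 80 loci were paired with a product. Named are 5 of these, since 1 is not reported here, the 2 most counted loci, and the 2 loci per direction with the smallest p in the mean of both alleles. From the nuclear lists the text takes genes that RefSeq names, by smallest p, and further sigma factor and polymerase genes chosen after their values were seen. The alternatives were RLE or library size scaling, chloroplast totals as library sizes, other filters, DESeq2, a fit that was not robust, only the groups compared, a replicate block and leaving out each library. The software was edgeR 4.0.16 and DESeq2 1.42.0 in R 4.3.3, with pandas 2.3.3, matplotlib 3.10.9 and numpy 2.4.6 in Python 3.11.15.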

Additional observations from a re-analysis of the deposited data

Results flagged for a closer look

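For 7 of the printed genes the change against Col-0 differed between the alleles by the direct test of pp4r3a-2 against pp4r3a-1 (edgeR adjusted p under 0.05), always with the lower level in pp4r3a-2. The log2 differences were -0.87 for ATCG00420 and -0.75 for psbG (ATCG00430), where pp4r3a-2 fell below Col-0 and pp4r3a-1 did not pass. They were -0.63 for rpl20 (ATCG00660) and -0.47 for ATCG01310, the only locus named rpl2 here. These loci rose in pp4r3a-1 and were not called in pp4r3a-2. As the locus of the other rpl2 copy was not identified, this does not describe rpl2 as a whole. The differences were -0.44 for clpP (ATCG00670) and -0.42 for ATCG00780. The smallest difference, -0.11 for ATCG00830 (edgeR adjusted p = 0.0458), lost its call under most alternatives. These were RLE scaling (edgeR adjusted p = 0.0533), a fit that was not robust (0.0642), only the groups compared (0.0638), DESeq2 (adjusted p = 0.121), both chloroplast scalings, and 7 of the 9 fits that left out a library (edgeR adjusted p from 0.0512 to 0.477), the exceptions being pp4r3a-1 replicate 2 and pp4r3a-2 replicate 2. Scaled to the chloroplast total none of these differences was called (edgeR adjusted p from 0.0590 upwards), and without the 2 most counted loci in the total those of psbG and ATCG00420 were (edgeR adjusted p = 0.0354 and 0.0198). No group had the 4 samples needed to test for a sample far from the others.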

How the results depend on the processing

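Under RLE or library size scaling, 2 other filters, DESeq2, a fit that was not robust, the groups compared alone and the replicate block, every count and median over the genes stayed within 1.5 times its main value or within the replicate spread. Higher calls ranged from 45 to 57 in pp4r3a-1 and from 28 to 43 in pp4r3a-2, and lower calls between the alleles from 27 to 38.

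Scaled to the chloroplast total, higher calls were 20, 0 and 11 in pp4r3a-1, pp4r3a-2 and the mean of both alleles, with medians of 0.53, 0.014 and 0.29. Lower calls were 3 in pp4r3a-2 and 3 between the alleles, whose median was -0.55. Scaled to that total without the 2 most counted loci, an alternative added after the counts were seen, higher and lower calls were 22 and 12, 11 and 9, 22 and 10, and between the alleles 2 and 6, with medians of 0.13, 0.13, 0.14 and -0.072. There the log2 change in pp4r3a-1 turned to -0.47 for psbG, -0.11 for cemA, -0.49 for clpP, -0.57 for ATCG00420 and -0.50 for ATCG00950 (all but cemA called lower). The mean change of the rpl2 locus ATCG01310 turned to -0.0450, and the allele difference of ATCG00830 to 0.20. Without those 2 loci the shares were 0.0666%, 0.104% and 0.0834% in Col-0, pp4r3a-1 and pp4r3a-2. The counts of calls under both chloroplast scalings stand without the share of all genes called in the same fits.

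Leaving out each library moved the median from 0.25 to 0.66 in pp4r3a-2 and from -0.49 to -0.21 between the alleles, and higher calls between the alleles from 0 to 1. Higher intron ratio calls ranged from 1 to 3 in pp4r3a-1 and from 1 to 3 between the alleles, and lower ones from 0 to 2 in pp4r3a-2 and from 1 to 2 in the mean of both alleles. The pp4r3a-2 share ranged from 0.476% to 0.744%.

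Over all genes, same-numbered replicates of different genotypes deviated with correlations from -0.062 to 0.047, so no shared replicate effect was seen there. Over the chloroplast genes these correlations ran from -0.52 to 0.48. They were positive in every pair of replicate 2 (0.24, 0.31 and 0.48) and of both signs in replicates 1 and 3. Whether these genes share a replicate effect was thus not settled. With the replicate block, 51 and 34 genes were higher in pp4r3a-1 and pp4r3a-2, and psbG became called in the mean of both alleles (-0.20, edgeR adjusted p = 0.0429). The share of protein-coding genes alone was not run, since most ATCG loci had no annotated type. The p-values rest on 3 replicates, and 1 count is worth up to 0.0482 CPM, so changes of the 13 genes under 1 CPM are the least certain.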
